A study of Rattus norvegicus with 18 samples.

Results

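The lungs described here are right lungs that were never clamped, taken from rats whose left lung had been made ischaemic and then reperfused for 3 h. They were chosen by their titles, which give the right side and 3 h of reperfusion: 3 of the 18 arrays of the series, set against 6 arrays titled control, so that 9 arrays entered the comparison. All were 1-colour Affymetrix rat 230A arrays, on which each gene is read by 1 or more probe sets, and a signal is the brightness of a probe set after the array has been scaled. Male Sprague-Dawley rats were anaesthetised and ventilated through a tracheotomy, the left chest was opened, and the left hilum was clamped for 2 h before blood flow and ventilation of the left lung were restored. The right lungs at 3 h are called lungs 1, 2 and 3 below, by the replicate numbers of the labels. For comparison the series holds 3 right lungs at 30 min of reperfusion and 3 clamped left lungs at 3 h. The 6 control lungs came from rats killed without this procedure, and the labels do not give their side. No rat had the operation without the clamp, so an effect of the clamp on the other lung, of anaesthesia, of ventilation, of the thoracotomy and of time cannot be told apart in a difference from control.

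While a hilum is clamped, the other lung carries the blood flow and the ventilation of both, and after release it receives blood that has passed the injured lung. Circulating signals that reach such a lung include glucocorticoids, which act through the nuclear receptor Nr3c1, and cytokines of the IL-6 family. IL-6 binds Il6r and the shared receptor gp130 (Il6st), Janus kinases then phosphorylate Stat3, and Stat3 induces acute phase genes together with the feedback inhibitor Socs3. Lung endothelium depends on BMP receptors, among which Bmpr2 is the receptor mutated in heritable pulmonary arterial hypertension, and on flow-induced transcription factors such as Klf2.

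Array measures of the 3 lungs lay close to those of the controls, whose median signals and RNA ratios were compared first. The median signal was 258 ± 12.6 in the right lungs at 3 h (SD, n = 3) and 275 ± 7.91 in controls (SD, n = 6; exact permutation test, two-sided, p = 0.0476, 0.143 after Benjamini-Hochberg adjustment over 3 array measures). The ratio of 3′ to 5′ beta-actin signal, which rises as RNA is degraded, was 1.42 to 1.78 against 1.31 to 1.54 in controls (exact permutation p = 0.131, adjusted 0.197), and that of Gapdh differed as little (exact p = 0.31). Lung 2 had the highest signals of cardiac muscle genes, a tissue that in rats also sleeves the pulmonary veins. The mean log2 signal of the 19 tested cardiac markers was 8.20 to 9.72 in the 3 lungs and 6.55 to 8.62 in controls. Because the tissue was analysed in bulk, fewer cells of a type and less RNA per cell cannot be told apart in anything that follows.

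Of 10533 probe sets tested with limma, 2255 differed between the right lungs at 3 h and control at an adjusted p under 0.05, which is what "called", "rose" and "fell" mean below. They were 868 higher and 1387 lower, or 21.4% of those tested. Per gene, taking for each the probe set with the brightest average, 599 of 7728 genes rose (7.75%) and 975 fell (12.6%), with a median log2 difference of -0.05 over all of them. After centring 631 genes fell, and with the mean of the cardiac markers as a covariate 352 rose and 513 fell. The signals of the 2 groups did not overlap in 1957 genes (25.3%). The balance of directions depends on the scaling: 38.5% of called probe sets were higher as deposited and 55.9% after each array had been centred on its median (1188 higher, 937 lower). Without lung 3 the count of called probe sets was 1417, with 569 genes lower.

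The largest rise was that of Mt2A, a metallothionein that binds zinc and copper and is induced by metals and glucocorticoids. Its signals were 10059.8, 5319 and 15293 in lungs 1, 2 and 3 and 376 to 959, median 443 in the 6 controls. It was 16.5-fold higher, a log2 difference of 4.04 ± 0.32 (SE; adjusted p = 5.3e-07), and log2 differences below are given with their SE in the same way. The lowest right lung exceeded the highest control several times over. The 250 bases before the Mt2A start site are shown because their arrangement, with several metal response elements, is the textbook feature of this gene. The window is chr19:10838709-10838958 on the minus strand of GRCr8, from RefSeq. The capitals mark the pattern TGCNCNC on either strand, found 5 times. It is looser than the element core, so a match need not be such an element.
Mt2A: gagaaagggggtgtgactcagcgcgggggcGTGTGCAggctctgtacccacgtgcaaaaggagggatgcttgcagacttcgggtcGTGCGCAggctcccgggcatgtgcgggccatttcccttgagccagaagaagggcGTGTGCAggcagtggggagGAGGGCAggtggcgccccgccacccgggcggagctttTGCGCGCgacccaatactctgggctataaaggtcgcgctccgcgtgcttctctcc
That short pattern is common, being present in 61.3% of the promoter windows of 6471 tested genes and in 50.1% of all 27457 RefSeq windows. Each window holds 250 bases before and 50 after the start. A match therefore describes the sequence and shows no binding.

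Il1r2, the decoy receptor that binds interleukin 1 without signalling, had signals of 1612, 712 and 1878 in the 3 lungs against 39.0 to 106, median 75.7 in controls. It was 13.7-fold higher (log2 3.77 ± 0.46, adjusted p = 2.83e-05), with no overlap. The calcium-binding neutrophil proteins rose with it: S100a8 stood at 3526, 2276 and 3026 against 235 to 696, median 338 (log2 3.00 ± 0.40, adjusted p = 7.46e-05). S100a9 stood at 6997, 5166 and 6651 against 847 to 2342, median 1098 (log2 2.36 ± 0.31, adjusted p = 6.61e-05). Fkbp5, a co-chaperone of the glucocorticoid receptor and among its most responsive targets, lay within a narrow band of 1937, 1743 and 2099, above every control (255 to 507, median 302), and was 5.69-fold higher (log2 2.51 ± 0.22, adjusted p = 1.35e-06). Timp1, an inhibitor of matrix metalloproteinases, rose to 5671, 2183 and 7549.6 from 772 to 1013, median 902 (log2 2.32 ± 0.31, adjusted p = 6.73e-05). F3, the tissue factor that starts coagulation, rose to 2936, 4006 and 6029 from 571 to 1593, median 847 (log2 2.18 ± 0.30, adjusted p = 0.00011). Serpinb2, the plasminogen activator inhibitor of type 2, was at background in controls (mean signal 21.6) and had a mean signal of 441 in the right lungs (385, 53.3 and 886; adjusted p = 0.00261). S100a8, S100a9 and Il1r2 also stand in the neutrophil marker list, whose mean was 9.94, 8.95 and 9.99 in the 3 lungs; the part of neutrophil number in their rise was not tested. Of the other 4 of the 12 largest rises, Areg, a ligand of the EGF receptor, stood at 212, 485 and 658 against 18.2 to 173, median 83.4 (log2 2.12 ± 0.45, adjusted p = 0.00315). Pla2g2a, a secreted phospholipase A2, had log2 difference 2.17 and Lilrb4, an inhibitory leukocyte receptor, 1.94, and both calls ended without lung 1 (adjusted p = 0.0747 and 0.0603). Mb, the oxygen-binding protein of heart and skeletal muscle, had signals of 387, 1629 and 177 against 13.7 to 223, median 104 (log2 2.21 ± 0.72, adjusted p = 0.0369), and its call ended without lung 1 or 2 or control 1, 2 or 5 (adjusted p from 0.0608 to 0.23). Without lung 3 its log2 difference was 2.89. For Serpinb2 the log2 difference was 2.77 with all arrays, 3.76 without lung 2 and 1.99 without lung 3.

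**Figure D1:**
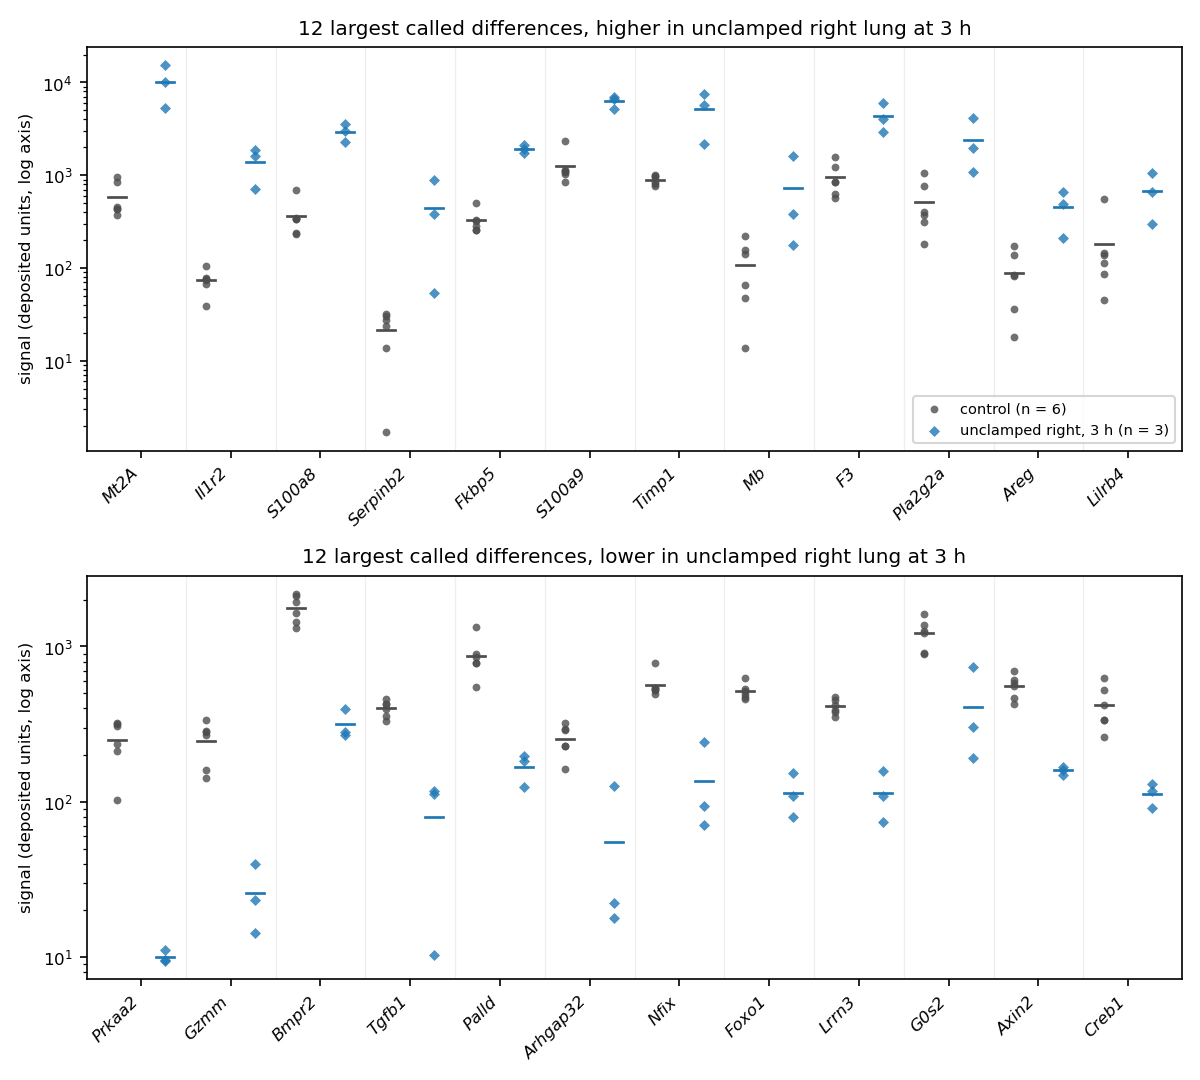
Signals in deposited units (log axis) of the 12 called genes with the largest rise (top) and the largest fall (bottom) in the unclamped right lung at 3 h. Grey circles are the 6 control arrays, blue diamonds the 3 right lungs at 3 h, and short lines the group means; only Mb and Lilrb4 have right lungs within the range of the controls.

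Among the falls, Prkaa2, the catalytic alpha 2 subunit of AMP-activated kinase, had signals of 11.2, 9.44 and 9.51 in the 3 lungs, at the bottom of the scale of these arrays, where 5% of all signals lie under 8.82. All 6 controls were higher, at 102 to 321, median 273 (adjusted p = 5.3e-07). Gzmm, a granzyme of natural killer cells and cytotoxic T cells, was likewise near background, at 14.2, 39.8 and 23.1 against 142 to 334, median 277 (adjusted p = 0.00224; mean signals 25.7 and 246). Bmpr2 stood at 270.0, 282 and 398 against 1311 to 2179, median 1794, 5.23-fold lower (log2 -2.39 ± 0.20, adjusted p = 9.41e-07). Palld, an actin-bundling protein, stood at 182, 124 and 197 against 549 to 1344, median 820.3 (log2 -2.19 ± 0.21, adjusted p = 4.35e-06). Neither pair of groups overlapped. Tgfb1, the prototype TGF-beta ligand, fell to 118, 10.3 and 112 from 334 to 456, median 411 (log2 -2.26 ± 0.31, adjusted p = 0.000101), a fall that lung 2 alone deepens, since the log2 difference was -1.60 without it. The remaining 7 also fell without overlap, and 6 of them are described. Foxo1, a transcription factor restrained by insulin, had signals of 79.3, 108 and 153 against 457 to 628, median 506 (log2 -1.99 ± 0.17, adjusted p = 9.12e-07). Axin2, a feedback target of Wnt signalling, had the tightest values, 149, 160.1 and 168 against 429 to 696, median 567 (log2 -1.64 ± 0.14, adjusted p = 9.12e-07). Log2 differences were -2.02 for Nfix and -1.64 for Creb1, both transcription factors, -1.69 for the membrane protein Lrrn3 and -1.69 for G0s2, an inhibitor of the lipase that opens fat stores (adjusted p from 4.51e-05 to 0.00466).

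Gene lists were read against those shares of all genes, 7.75% higher and 12.6% lower, and no test was made of any list. The 48 lists name 1330 genes, of which 957 were tested, 133 lay below the filter on low signal and 240 had no probe set assigned to them alone. Where leaving out a single array moved a count above 3 by more than 1.5 times, the count without it stands with the list; counts of 3 or fewer moved by up to 3 in such fits. For Aqp1, Bcl2l1, Col1a1, Dnaja1, Dusp1, Dusp6, Hspa9, Il33, Il6st, Slc1a3, Slc2a3, Slc7a1, Sox4, Stat3 and Tgfb2, all described below, another tested probe set of the gene gave no call. Another probe set was called with a log2 difference over 1.5 times that given below for Cbl (-0.84), Gclc (1.22), Igfbp5 (-1.79), Itga7 (1.87), Klf9 (2.25), Mef2c (-1.88), Sox4 (-1.44) and Timp3 (1.29, 1.59 and 2.13), and with one over 1.5 times smaller for Klf2 (-0.57) and Slc1a3 (0.77). At one end stood the IL-6, glucocorticoid, metallothionein, cytokine, neutrophil and coagulation lists, with 40.0% to 80.0% of members higher. At the other stood the lymphocyte, transcription factor, AMPK, mast cell, BMP and Wnt lists, with 30.4% to 52.2% lower. Lists share members, so their shares are not independent: Il1r2 is in the glucocorticoid, cytokine and neutrophil lists, Mt2A in the glucocorticoid and metallothionein lists. The lists were chosen with earlier results of these data known.

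**Figure D2:**
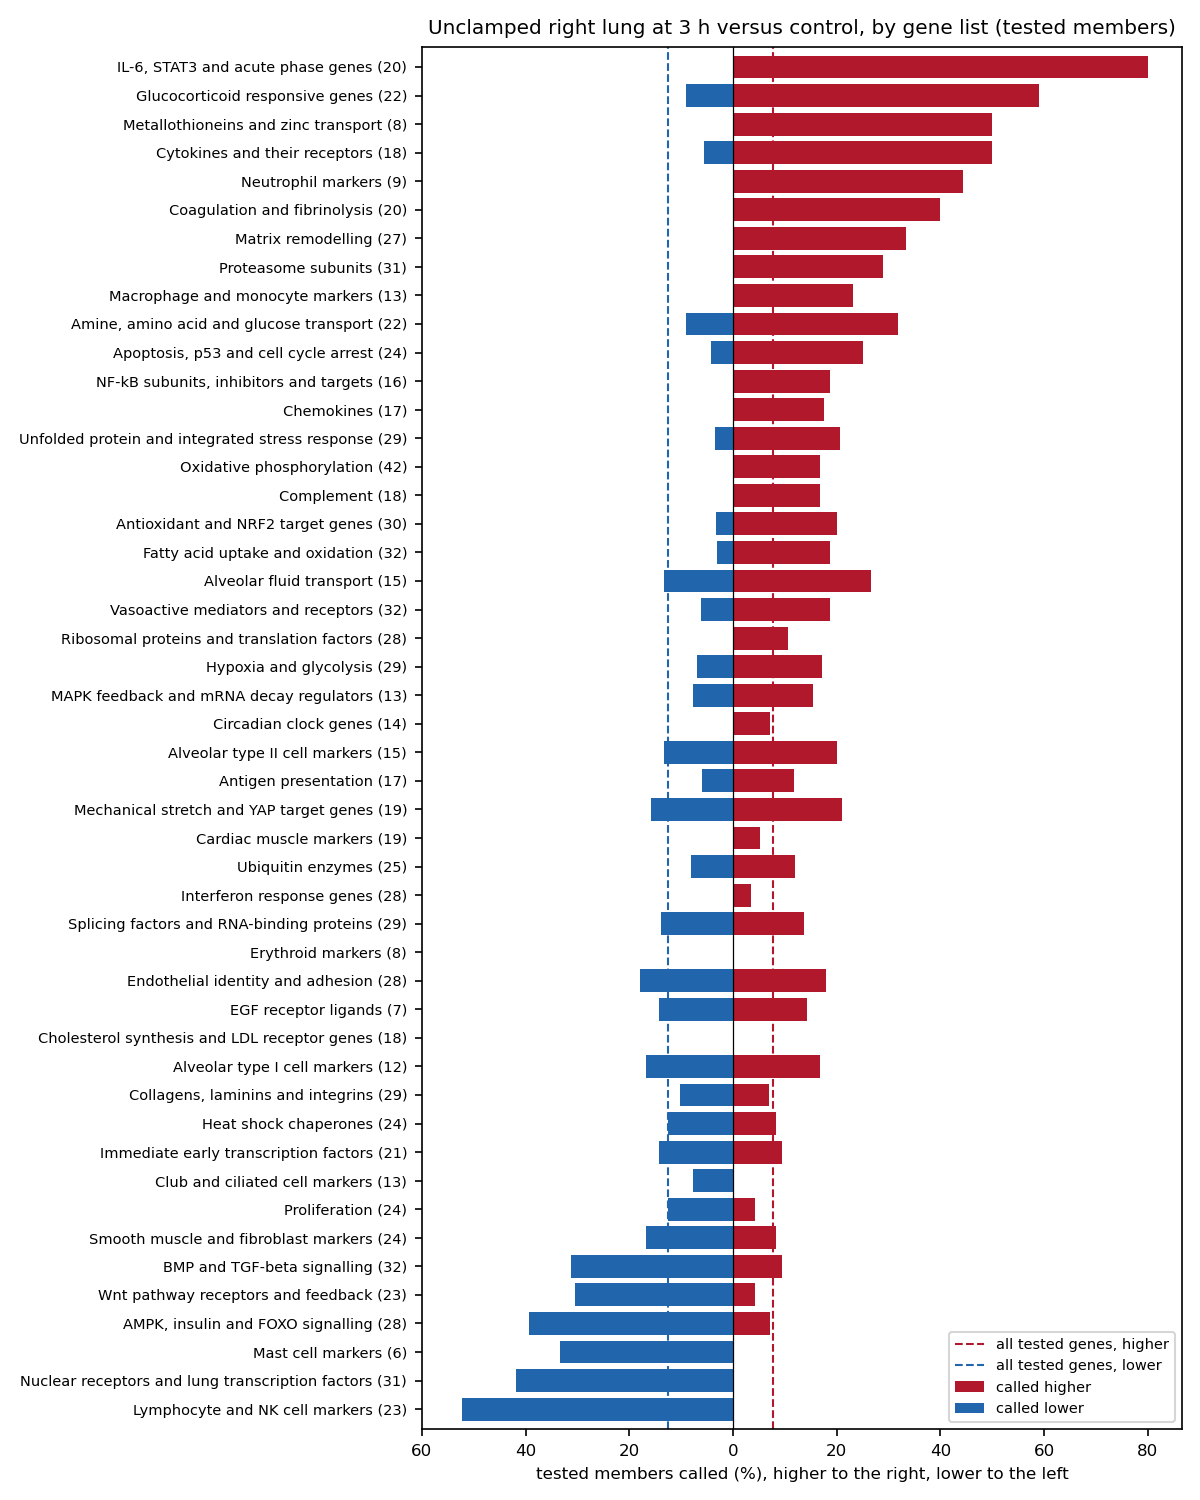
Percentage of tested members of each of 48 gene lists that were called higher (red, to the right) or lower (blue, to the left) in the unclamped right lung at 3 h than in control, with the number of tested members in brackets. Dashed lines mark the shares of all 7728 tested genes, 7.75% higher and 12.6% lower; the IL-6 list has the largest share higher and the lymphocyte list the largest share lower.

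Of the 20 tested members of the IL-6, STAT3 and acute phase list, 16 rose and none fell, with a median log2 difference of 0.85 against -0.05 for all genes. Il6 itself had signals of 200.0, 87.6 and 675 in lungs 1, 2 and 3 and 38.1 to 54.0, median 48.5 in controls, so even the lowest lung lay above every control (log2 1.86 ± 0.53, adjusted p = 0.0193). The receptor chain Il6st rose to 4234, 3349.5 and 5632 from 2078 to 2803, median 2508 (log2 0.81 ± 0.15, adjusted p = 0.00117). Downstream of it, Stat3 rose to 1877, 1573 and 2460.2 from 868 to 1154, median 992 (log2 0.95 ± 0.15, adjusted p = 0.000301). Its kinase Jak2 had signals of 626, 343 and 692 against 255 to 350.4, median 277 (log2 0.85 ± 0.21, adjusted p = 0.00877). A second tested probe set did not show the rise of Stat3 (log2 difference -0.13, adjusted p = 0.78) or of Il6st (-0.10, adjusted p = 0.737). Il6st has another tested probe set, which rose (log2 difference 1.01, adjusted p = 0.000702). The feedback inhibitors rose in all 3 lungs. Socs3 stood at 857, 639.7 and 1247 against 247 to 406, median 307 (log2 1.43 ± 0.29, adjusted p = 0.00233). Socs2, which limits growth hormone and cytokine receptors, stood at 589, 363 and 479.7 against 103 to 149.8, median 127 (log2 1.72 ± 0.21, adjusted p = 2.58e-05). Fgg, the gamma chain of fibrinogen, rose to 3119, 2520.3 and 2088 from 829 to 1049, median 984 (log2 1.39 ± 0.29, adjusted p = 0.0028). Cebpd, a transcription factor of the acute phase, rose to 3912, 2957 and 4570.1 from 639.9 to 2362, median 1163 (log2 1.60 ± 0.37, adjusted p = 0.0061). The other 4 members gave no call. Cebpb had a difference short of the threshold (log2 0.77, adjusted p = 0.0658), C3 and Cish had log2 differences near 0 (-0.04 and 0.10), and the siderophore binder Lcn2 split the lungs, at 5585, 341 and 7904 against 983 to 2055, median 1578 (adjusted p = 0.577). Lcn2 is also a member of the neutrophil marker list, so the mean of that list, lowest in lung 2, is not separate from its values. Without lung 3 the number of members called was 8, and Jak2 (adjusted p = 0.0665) and Il6 (0.154) were among those lost; without lung 2 the log2 difference of Il6 was 2.47. The element TTCNNNGAA, the core bound by STAT proteins, was looked for after the data had been seen and occurred in 1 of the 12 promoter windows found for the members that rose, against 6.38% of the windows of tested genes.

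**Figure D3:**
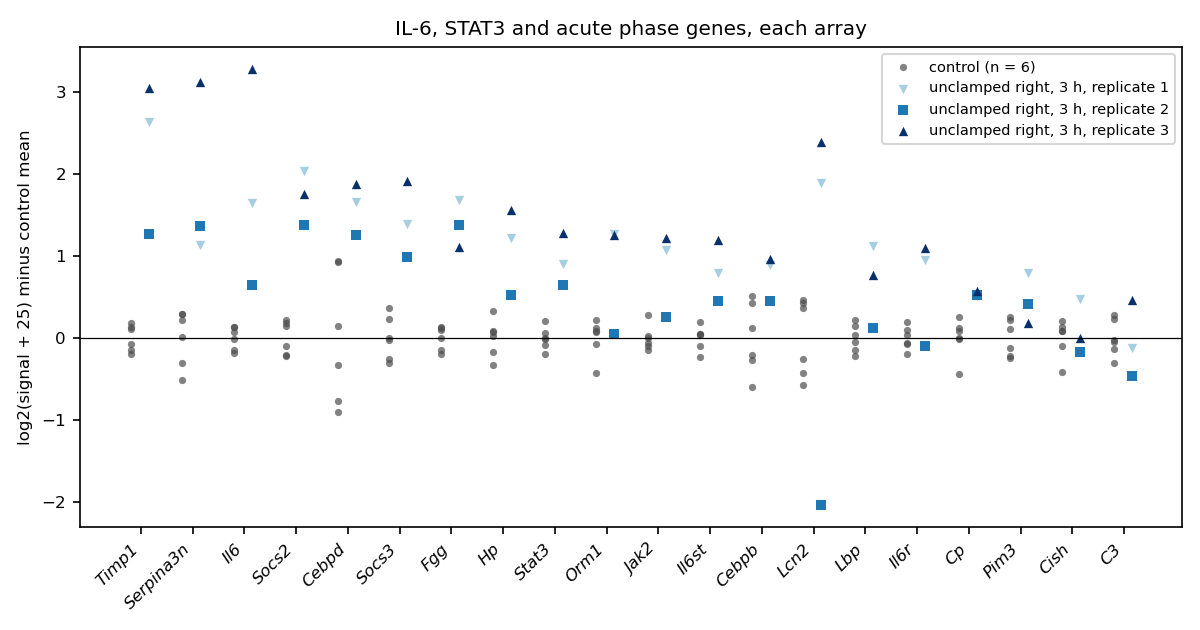
Difference of each array from the control mean, in log2(signal + 25), for the 20 tested members of the IL-6, STAT3 and acute phase list, ordered by mean difference. Grey circles are the 6 controls and blue symbols the 3 right lungs at 3 h by replicate number; lung 3 (dark triangles) is highest for Il6, Timp1 and Socs3, and lung 2 (squares) is lowest for those 3 genes and below the controls for Lcn2.

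Of 22 tested glucocorticoid responsive genes, 13 rose and 2 fell (median log2 difference 0.56). Besides Mt2A, Fkbp5 and Il1r2, the transcription factor Klf9 stood at 4201, 4142 and 4617 against 1439 to 2035, median 1899, 2.33-fold higher (log2 1.22 ± 0.12, adjusted p = 4.51e-06). Errfi1, a brake on the EGF receptor, rose to 3593, 2295 and 4025 from 933 to 1635, median 1233 (log2 1.39 ± 0.21, adjusted p = 0.000261). Of the enzymes, glutamine synthetase Glul stood at 3752, 2758 and 5074 against 2014 to 2122, median 2042 (log2 0.86 ± 0.17, adjusted p = 0.00218). Cysteine dioxygenase Cdo1 stood at 4419, 4789.6 and 4683 against 1568 to 2759, median 2277 (log2 1.06 ± 0.23, adjusted p = 0.00389). Sgk1, the kinase that keeps epithelial sodium channels at the cell surface, rose less, to 2358, 2268 and 2023 from 1434 to 1769, median 1598 (log2 0.47 ± 0.10, adjusted p = 0.00324). None of these 5 had a right lung within the control range. Signals of the 2 groups did not overlap in 15 of the 22 members, against 25.3% of all tested genes. The receptor Nr3c1, named after its values were seen, was among the members that fell, at 999, 1251 and 810.1 against 1124 to 1601, median 1468 (log2 -0.49 ± 0.13, adjusted p = 0.0124), a call lost without lung 3 (adjusted p = 0.0962). The clock gene Per1, also a glucocorticoid target, gave no call (log2 0.26, adjusted p = 0.55). Leaving out single arrays left between 10 and 13 members higher; the members lower numbered 1 without lung 1 or 2 or control 2, 5 or 6 and 0 without lung 3. The core of the glucocorticoid response element, ACANNNTGT, lay in 1 of 9 promoter windows found for the members that rose (that of Glul), against 3.66% of the windows of tested genes.

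Metallothionein and zinc transport genes numbered 8, of which 4 rose and none fell. Slc39a8, a zinc importer, stood at 1315, 1154 and 1161 against 641 to 811, median 678 (log2 0.76 ± 0.18, adjusted p = 0.00701). Slc30a4, a zinc exporter, had signals of 488, 519 and 555 against 345 to 452, median 366 (log2 0.42 ± 0.12, adjusted p = 0.0181), a call lost without lung 3 (adjusted p = 0.0783), where 2 members were higher and 1 lower. With the cardiac marker mean as a covariate 2 were higher. Of 14 circadian clock genes only Nfil3, a repressor of D-box genes, was called, at 608, 473 and 759 against 161 to 272, median 245 (log2 1.29 ± 0.18, adjusted p = 0.0001). Its promoter window held neither the E-box CACGTG nor the D-box TTATGNAA, which 9.67% and 1.67% of the windows of tested genes contain.

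Cytokines and their receptors included 18 tested genes, of which 9 rose and 1 fell. The receptors led: Tnfrsf12a, the receptor of the cytokine TWEAK, stood at 619, 1062 and 1143 against 194 to 247, median 226 (log2 1.91 ± 0.29, adjusted p = 0.000262). The interleukin 4 receptor Il4r stood at 1463, 836 and 1768 against 448 to 618, median 524 (log2 1.26 ± 0.21, adjusted p = 0.00054). Ifngr1, which binds interferon gamma, rose evenly to 4803, 4684 and 5119 from 2808 to 3405, median 3168 (log2 0.64 ± 0.11, adjusted p = 0.000746). Il1a, an alarm cytokine released by damaged cells, had signals of 1180.3, 607 and 1805 against 240.2 to 723, median 302 (log2 1.43 ± 0.41, adjusted p = 0.019). In contrast Il33, an alarmin stored in nuclei, fell to 2063, 2241 and 1726 from 2646 to 3073, median 2879 (log2 -0.51 ± 0.13, adjusted p = 0.0121). The classical early cytokines gave no call: Tnf had log2 difference 0.45 (adjusted p = 0.244) and Il1b 0.31 (adjusted p = 0.597). Without lung 3, 5 members were higher and none lower; the calls of Il33 and Il1a ended there (adjusted p = 0.0782 and 0.122), and that of Il1a also without lung 1 (0.059).

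Chemokines rose in 3 of 17 cases and fell in none. Cxcl14, a chemokine made by epithelium and stroma, was the firmest, at 3056, 2495 and 3158 against 1069 to 1546, median 1347 (log2 1.11 ± 0.13, adjusted p = 1.69e-05). Cxcl1, which recruits neutrophils, stood at 835, 1173 and 1788 against 260.3 to 680.3, median 429 (log2 1.48 ± 0.30, adjusted p = 0.00238). Ccl2, which recruits monocytes, stood at 337, 195 and 431 against 46.8 to 161, median 89.9 (log2 1.55 ± 0.44, adjusted p = 0.0185). The call of Ccl2 ended without lung 1 or 3 (adjusted p = 0.0583 and 0.0944). Cxcl2 lay above every control in the 3 lungs (158, 179 and 546 against 66.7 to 142, median 111) but was not called (adjusted p = 0.193).

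The NF-kB list had 3 of 16 members higher. Sod2, the mitochondrial superoxide dismutase, rose to 2597, 1893 and 3489 from 891 to 1045, median 1015 (log2 1.36 ± 0.27, adjusted p = 0.00233). The inhibitor Nfkbia rose to 5290.2, 4356 and 6265 from 1576 to 3604, median 2754 (log2 1.02 ± 0.21, adjusted p = 0.00289). Immediate early transcription factors had 2 of 21 higher (9.52%) and 3 lower (14.3%), near the shares of all tested genes, 7.75% and 12.6%. Klf2, which laminar flow induces in endothelium, fell to 2398, 1209 and 1592 from 3459 to 5912, median 4288 (log2 -1.41 ± 0.20, adjusted p = 0.000143). Klf10, an early target of TGF-beta, fell to 835, 719 and 768 from 1347 to 1803, median 1681 (log2 -1.03 ± 0.15, adjusted p = 0.000182). Myc had signals of 551, 257 and 846 against 201 to 271, median 241 (log2 0.98 ± 0.29, adjusted p = 0.0243), with lung 2 inside the control range and the call lost without lung 1 or 3 (adjusted p = 0.0811 and 0.181). The AP-1 gene Fos (921, 943 and 1990.4 against 166 to 2027, median 424, adjusted p = 0.275) and Egr1 (922, 429 and 3074 against 613 to 4335, median 1033, adjusted p = 0.704) overlapped the controls, which themselves varied widely. Without lung 1 or 3 none of the early factors was higher, without control 2 or 6 there was 1, and without lung 2 there were 4.

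Of the 13 MAPK feedback and mRNA decay regulators, 2 rose and 1 fell. Dusp1, a phosphatase that switches off stress kinases, rose to 4170.5, 3419 and 6321 from 2228 to 2727, median 2389.9 (log2 0.87 ± 0.25, adjusted p = 0.019). It was not called without lung 3 (adjusted p = 0.129), which left Errfi1 as the only member higher. Dusp6, which switches off ERK, had log2 difference -0.68 (adjusted p = 0.0354) and was not called without lung 1 (0.238) or without control 2, 4, 5 or 6 (0.0564 to 0.0636). Its other probe sets had log2 differences of 0.32 and -0.43 (adjusted p = 0.417 and 0.527). Among 7 ligands and receptors of the EGF receptor family, Areg rose and Egfr fell to 105, 53.8 and 119 from 198 to 319, median 250.2 (log2 -1.27 ± 0.20, adjusted p = 0.000299). Hbegf gave no call (log2 0.29, adjusted p = 0.611). Of 28 interferon response genes only Ifitm3, a membrane protein that restricts viral entry, rose (7430.4, 6422 and 9284 against 4329.6 to 5511, median 4734; log2 0.65 ± 0.13, adjusted p = 0.00167). Irf7 gave no call (log2 0.07, adjusted p = 0.891).

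Leukocyte markers differed in direction. Of 9 neutrophil markers 4 rose, S100a8, S100a9, Il1r2 and the collagenase Mmp8 (549, 264 and 578 against 66.9 to 167, median 109.6; log2 1.79 ± 0.47, adjusted p = 0.012), and none fell. Mmp8 was not called without lung 3 (adjusted p = 0.0627). The chemokine receptor Cxcr2, found largely on neutrophils, had signals of 189.9, 105 and 202 against 82.7 to 115, median 93.0 and no call (adjusted p = 0.139). The mean log2 signal of the 9 markers was 8.95 to 9.99 in the right lungs, above the 7.91 to 8.50 of controls. Of 13 macrophage and monocyte markers 3 rose. Cd14, the coreceptor for bacterial lipopolysaccharide, stood at 2516, 1336 and 3745 against 420.4 to 811, median 663 (log2 1.90 ± 0.32, adjusted p = 0.000587). The lectin Lgals3 stood at 6507, 6115 and 7874 against 3205 to 4311, median 3838 (log2 0.84 ± 0.20, adjusted p = 0.00643). Complement genes rose in 3 of 18 cases and fell in none. The chains of C1q, made by macrophages, were among them: C1qc stood at 877, 936 and 865 against 404 to 610.1, median 481 (log2 0.82 ± 0.17, adjusted p = 0.00315). C1qb stood at 933, 818 and 649 against 265 to 497, median 354 (log2 1.08 ± 0.27, adjusted p = 0.00875). Cd59b, which blocks the membrane attack complex, also rose (log2 0.63 ± 0.11, adjusted p = 0.0011). Of 17 antigen presentation genes 2 rose and 1 fell, Ciita, the activator of class II genes (log2 -0.55, adjusted p = 0.0106), and none was called without lung 3 (Ciita 0.0693; 0.0541 without lung 2).

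Lymphocyte and NK cell markers fell in 12 of 23 cases, against 12.6% of all genes, and none rose; the median log2 difference was -0.61. Lck, the kinase of the T cell receptor, stood at 491, 408 and 449 against 905 to 1076, median 1008 (log2 -1.11 ± 0.16, adjusted p = 0.000143). The T cell factor Tcf7 had signals of 301, 269.6 and 259.8 against 555 to 685, median 621 (log2 -1.10 ± 0.16, adjusted p = 0.000217). The receptor chain Cd3d had 85.5, 140.2 and 124 against 209 to 358, median 274 (log2 -1.09 ± 0.25, adjusted p = 0.00536). These 3 genes showed no overlap between groups. The same held for Cd3g (log2 -0.81), Cd5 (-0.63), Cd8a (-0.98) and Lat (-0.61), with adjusted p from 0.0108 to 0.0135. Signals did not overlap in 13 of the 23 members, against 25.3% of all tested genes. The mean log2 signal of the list was 7.93 to 8.02 in the 3 lungs and 8.38 to 8.70 in controls. Without lung 2 the number lower was 7, and the call of Lat ended (adjusted p = 0.0647), as did that of Cd8a without lung 1 (0.052). With the cardiac marker mean as a covariate, 4 of the 23 stayed lower; Lck, Tcf7, Gzmm and Cd3d were those 4. Of 6 tested mast cell markers, the growth factor receptor Kit fell to 286, 237 and 221 from 306 to 571, median 468 (log2 -0.78 ± 0.20, adjusted p = 0.0099). The histidine decarboxylase Hdc fell to 148, 172 and 98.1 from 185 to 257, median 228 (log2 -0.62 ± 0.16, adjusted p = 0.0108). Both calls ended without lung 3 (adjusted p = 0.052 and 0.0889). None of 8 erythroid markers was called by limma, with 3 at an unadjusted p under 0.05.

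**Figure D4:**
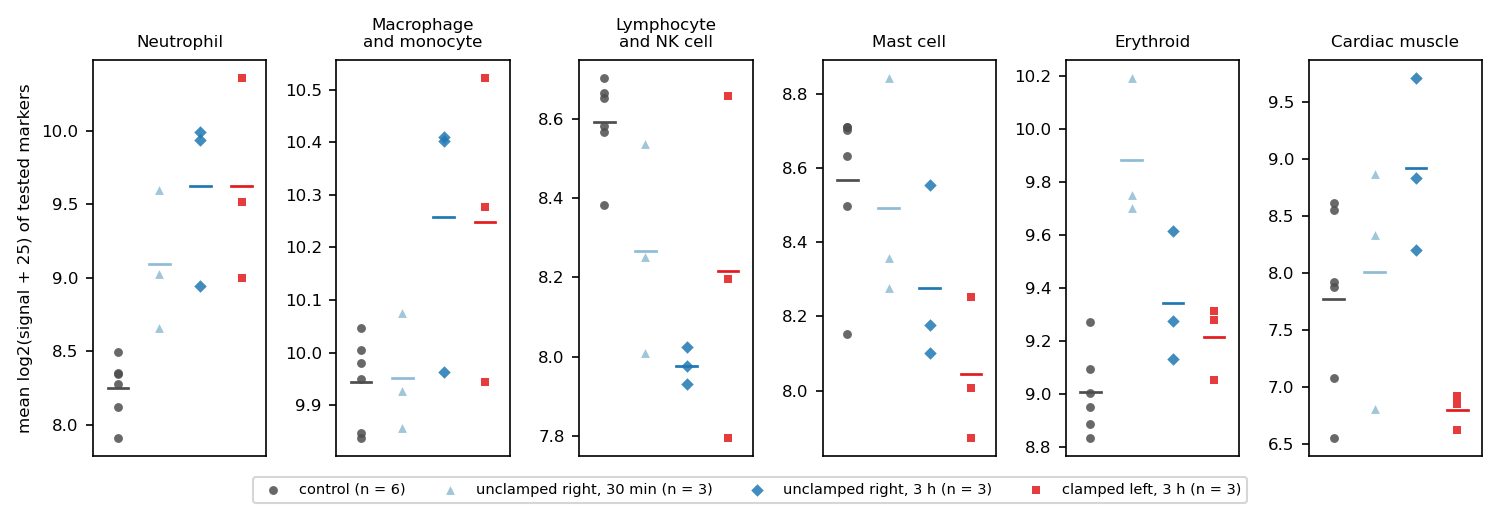
Mean log2(signal + 25) of the tested members of 6 marker lists on each array, for controls (grey circles), unclamped right lungs at 30 min (light triangles) and 3 h (blue diamonds) and clamped left lungs at 3 h (red squares); short lines are group means. The right lungs at 3 h lie above the controls for neutrophil markers and below them for lymphocyte markers, and lung 2 has the highest cardiac value of all, 9.72.

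Coagulation and fibrinolysis genes rose in 8 of 20 cases and fell in none (median log2 difference 0.50). F3 was among those that rose. So was Serpind1, heparin cofactor II, at 457, 298 and 432 against 128 to 169.8, median 147 (log2 1.25 ± 0.18, adjusted p = 0.000148). On the fibrinolytic side Plat, tissue plasminogen activator, stood at 2293, 2054 and 3696 against 1070.2 to 1279, median 1159.8 (log2 1.13 ± 0.21, adjusted p = 0.00128). Plaur, the urokinase receptor, stood at 510.3, 206 and 428 against 67.7 to 123, median 82.6 (log2 1.77 ± 0.38, adjusted p = 0.00362). Urokinase itself, Plau, lay below every control in all 3 lungs (389, 463 and 368 against 655 to 727, median 686) without a call (adjusted p = 0.146). With the cardiac marker mean as a covariate the number higher was 5. Without lung 3 it was 5, which still held F3, Serpind1, Plat, Serpinb2 and Plaur.

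The endothelial list had 5 of 28 members higher and 5 lower as deposited, and 6 higher and 3 lower with arrays centred on their medians. Kdr, the main VEGF receptor, fell to 2658, 3042 and 2541 from 4994 to 5869.7, median 5350.0 (log2 -0.96 ± 0.13, adjusted p = 7.78e-05). Mcam, an adhesion molecule of vessel walls, rose to 4106, 4348 and 4534 from 2515 to 3167, median 2682 (log2 0.64 ± 0.10, adjusted p = 0.000266). S1pr1, the sphingosine phosphate receptor that seals endothelial junctions, rose to 5753, 5372 and 7073 from 3525 to 4837, median 4284 (log2 0.50 ± 0.11, adjusted p = 0.00361). The selectins, by which activated endothelium catches leukocytes, rose most. Selp stood at 387, 138 and 818 against 68.6 to 105, median 74.9 (log2 1.90 ± 0.41, adjusted p = 0.00408; log2 2.52 without lung 2), and Sele at 37.2, 131 and 164 against a control mean of 22.2, which is at background (adjusted p = 0.0165; 0.0718 without lung 2 and 0.103 without lung 3). The adhesion molecules Icam1 (log2 -0.18, adjusted p = 0.356) and Vcam1 (-0.13, adjusted p = 0.539) gave no call. Plvap, which forms the diaphragms of endothelial pores, fell by 0.41 on the log2 scale (adjusted p = 0.0126; 0.0684 without lung 2). Leaving out lung 2 left 3 higher and 2 lower, leaving out lung 3 left 3 of each, and 3 stayed lower without lung 1 or control 3, 4 or 6.

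Among 32 vasoactive mediators and receptors, 6 rose and 2 fell. Agtr1a, the angiotensin II receptor of type 1, was the clearest, at 1315, 1358 and 1507 against 573 to 769, median 621, 2.11-fold higher (log2 1.08 ± 0.13, adjusted p = 3.46e-05). Npr1, the receptor of atrial natriuretic peptide, fell to 659, 571 and 477 from 722 to 1249, median 956 (log2 -0.71 ± 0.16, adjusted p = 0.00563). Ddah1, which clears an inhibitor of nitric oxide synthase, fell to 681, 346 and 484 from 746 to 982, median 797 (log2 -0.76 ± 0.18, adjusted p = 0.00627). Ptgis, prostacyclin synthase, had log2 difference 0.67 (adjusted p = 0.0128), and was not called without lung 1 or 3 (0.0608 and 0.0798). Edn1, the precursor of endothelin 1 (0.53, adjusted p = 0.293), and Ptgs2, the inducible cyclooxygenase (0.83, adjusted p = 0.199), gave no call. There were 2 members higher without lung 1, 2 without lung 3 and 3 with the cardiac covariate.

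BMP and TGF-beta signalling genes fell in 10 of 32 cases and rose in 3, with counts of 7 to 10 and 2 to 3 when any array was left out. Ligands and receptors were among them. With Bmpr2 and Tgfb1 fell Bmp6, a ligand made by lung endothelium, to 831, 1003 and 773 from 1549.7 to 1806, median 1670.2 (log2 -0.93 ± 0.13, adjusted p = 8.83e-05). Bmpr1a, a type I receptor, fell to 286, 328 and 233 from 399 to 532, median 451 (log2 -0.67 ± 0.14, adjusted p = 0.00358). The activin receptor Acvr2b had signals of 151, 50.2 and 117 against 185 to 251, median 222 (log2 -0.97 ± 0.24, adjusted p = 0.00895; adjusted p = 0.0714 without lung 2). Id4, an inhibitor of helix-loop-helix factors and a BMP target, fell to 46.7, 83.9 and 44.1 from 102 to 194, median 177 (log2 -1.16 ± 0.28, adjusted p = 0.00827). In the other direction Smad1, the BMP signal transducer, rose to 1441, 1385 and 2081 from 804 to 1163, median 1042 (log2 0.65 ± 0.14, adjusted p = 0.00409). The ligand Tgfb2 rose to 772, 733 and 825 from 472 to 595, median 502 (log2 0.59 ± 0.13, adjusted p = 0.0056), opposite to Tgfb1.

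Wnt receptors and feedback genes fell in 7 of 23 cases and rose in 1. Besides Axin2 and Tcf7, the receptor Fzd1 fell to 398, 381 and 538 from 852 to 1069.6, median 961 (log2 -1.10 ± 0.18, adjusted p = 0.000514). The receptor Fzd2 fell to 275, 365 and 154 from 517 to 617, median 586 (log2 -1.12 ± 0.25, adjusted p = 0.00466). The coreceptor Lrp6 stood at 497, 392 and 464 against 801 to 1215, median 957 (log2 -1.07 ± 0.18, adjusted p = 0.000582). Apc, a scaffold of the complex that destroys beta-catenin, stood at 599, 523 and 534 against 714 to 969.7, median 843 (log2 -0.60 ± 0.12, adjusted p = 0.00193). None of these 4 overlapped the controls. In the list, signals did not overlap in 6 of the 23 members, near the 25.3% of all tested genes. Sfrp1, a secreted inhibitor, was the member that rose (log2 0.40, adjusted p = 0.0339), and its call ended without lung 1 or 3 or control 2, 4, 5 or 6 (0.0509 to 0.207). The mechanical stretch and YAP list, of interest because this lung was ventilated, had 4 of 19 members higher and 3 lower. F3, Areg and Tgfb2 rose, and so did the stress gene Gadd45b (2025, 2028 and 1929 against 725 to 1249.7, median 1017; log2 0.94 ± 0.16, adjusted p = 0.000567). Amotl2, a scaffold that holds YAP, fell to 1569, 1874 and 1018 from 2448 to 3142, median 2806 (log2 -0.94 ± 0.19, adjusted p = 0.00218). The YAP targets Ccn2 (log2 -0.06, adjusted p = 0.849) and Ankrd1 (0.81, adjusted p = 0.176) gave no call, and 5 members were lower without lung 3 or after quantile normalization.

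Of 28 genes of AMPK, insulin and FOXO signalling, 11 fell and 2 rose. Prkaa2 and Foxo1 led the falls. Trib2, a pseudokinase that binds Akt, stood at 1189.7, 1279.5 and 935 against 2122 to 2426, median 2245 (log2 -0.99 ± 0.12, adjusted p = 3.95e-05). Tsc2, a brake on mTOR, stood at 397, 232 and 313 against 515 to 659.7, median 545 (log2 -0.82 ± 0.15, adjusted p = 0.00102). Igfbp3, which binds insulin-like growth factors, rose to 852, 742 and 871 from 267 to 460.0, median 429, 2.05-fold higher (log2 1.03 ± 0.19, adjusted p = 0.0012). Its relative Igfbp5 fell (log2 -0.77, adjusted p = 0.0179), though not without lung 2 or 3 (0.0963 and 0.0652). Its other tested probe set fell further (log2 -1.79, adjusted p = 1.44e-05). Without lung 3 the number lower was 5, without lung 2 it was 7, and with arrays centred on their medians it was 7.

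Nuclear receptors and lung transcription factors fell in 13 of 31 cases and rose in none, with a median log2 difference of -0.49. Centring each array on its median left the count at 13 lower and 0 higher, and single arrays left out gave 9 to 13. Rarg, a retinoic acid receptor, stood at 232, 133 and 131 against 412 to 565, median 519, 2.86-fold lower (log2 -1.52 ± 0.15, adjusted p = 5.2e-06). Nr2f2, which specifies venous endothelium, fell to 867, 642 and 542 from 1422 to 1817, median 1623 (log2 -1.24 ± 0.19, adjusted p = 0.000311). Mef2c, active in endothelium and muscle, fell to 266, 238 and 161 from 465 to 527, median 493 (log2 -1.09 ± 0.15, adjusted p = 0.000124). The homeobox gene Meis2 fell to 138, 116 and 105 from 247 to 319.6, median 304 (log2 -1.13 ± 0.20, adjusted p = 0.000846). Sox4 fell to 397, 409 and 447 from 683 to 1163, median 814 (log2 -0.95 ± 0.18, adjusted p = 0.00115), and so did Mn1 (log2 -1.27, adjusted p = 0.00383). In none of these 6 did a right lung reach the lowest control. Signals did not overlap in 13 of the 31 members, against 25.3% of all tested genes.

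Genes of apoptosis and cell cycle arrest rose in 6 of 24 cases and fell in 1. Bcl2l1, which encodes the survival protein Bcl-xL, stood at 1974, 1574 and 1382 against 352 to 583, median 477, 3.35-fold higher (log2 1.74 ± 0.15, adjusted p = 1.35e-06), although its second tested probe set gave no call. All 3 growth arrest genes of the Gadd45 family rose: Gadd45a to 1759, 1779 and 1813 from 582 to 802, median 601 (log2 1.45 ± 0.16, adjusted p = 1.39e-05), beside Gadd45b. Gadd45g rose to 1010.0, 793 and 1239 from 285 to 442, median 380.0 (log2 1.37 ± 0.23, adjusted p = 0.000587). Bcl2l11, which encodes the death promoter Bim, rose (log2 0.69, adjusted p = 0.00732) and the death effector Bak1 fell (-0.49, adjusted p = 0.00834), calls that ended without lung 1 (0.0561) and without lung 2 (0.0528) respectively. Cdkn1a, the p53 target p21, lay above the controls in each lung but was not called (899, 823 and 805 against 562 to 751, median 738, adjusted p = 0.37). Among 24 proliferation genes 1 rose (4.17%) and 3 fell (12.5%, near the 12.6% of all tested genes), and 5 fell after quantile normalization. The clear one was Ccnd2, cyclin D2, at 421, 745 and 688 against 1406 to 1930.2, median 1748 (log2 -1.46 ± 0.22, adjusted p = 0.000207). The dividing-cell marker Mki67 (log2 -0.38, adjusted p = 0.236) gave no call.

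Matrix remodelling genes rose in 9 of 27 cases and fell in none. With Timp1 rose Timp3, which also restrains VEGF signalling, to 6783, 6686 and 8246 from 3493 to 5247, median 4009 (log2 0.79 ± 0.16, adjusted p = 0.0021). Lox, which cross-links collagen and elastin, rose to 2679.9, 2197 and 3322 from 1158 to 1766, median 1262 (2-fold, adjusted p = 0.00308). Adamts1, a protease that cleaves proteoglycans, had signals of 1774, 1574 and 3876 against 678 to 1429, median 734 (log2 1.29 ± 0.30, adjusted p = 0.00611). It lost its call without lung 3 (adjusted p = 0.0574), when 3 members were called. Of 29 collagens, laminins and integrins 2 rose (6.9%) and 3 fell (10.3%), near the shares of all tested genes, 7.75% and 12.6%. Itga7, a laminin receptor, rose to 834, 707 and 1045 from 338 to 429.9, median 395 (log2 1.07 ± 0.14, adjusted p = 4.51e-05). Col1a1, the main fibrillar collagen, fell to 2033, 1139.8 and 2369.8 from 2537 to 3910.1, median 3310.3 (log2 -0.89 ± 0.20, adjusted p = 0.00581), as did the collagen receptor Itga1 (log2 -0.78 ± 0.19, adjusted p = 0.00813). Without lung 3 there were 6 lower, and without lung 2 there were 5 higher. Smooth muscle and fibroblast markers counted 2 higher (8.33%) and 4 lower (16.7%) of 24. Of these, 2 were lower without lung 2 or 3 or with the cardiac covariate, and none was higher without lung 3; Acta2 gave no call (log2 -0.42, adjusted p = 0.0876).

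Called shares were 33.3% for type II, 33.3% for type I and 7.69% for club and ciliated cell markers, against 20.4% of all tested genes. The surfactant genes had log2 differences of 0.03 for Sftpc, 0.21 for Sftpb and 0.20 for Sftpa1 (adjusted p from 0.233 to 0.882). Of 15 alveolar type II markers 3 rose and 2 fell: the nucleoside transporter Slc28a2 stood at 651, 658 and 598 against 209 to 300.1, median 247 (log2 1.25 ± 0.22, adjusted p = 0.00101). Nkx2-1, the transcription factor that maintains type II cells, stood at 1579.7, 1121 and 1052 against 1872 to 2338, median 2234 (log2 -0.81 ± 0.19, adjusted p = 0.00728). Type I markers counted 2 higher and 2 lower of 12, with every one of these calls lost without lung 3. Club and ciliated cell markers gave 1 call of 13, the monooxygenase Fmo1 (log2 -0.90, adjusted p = 0.024; 0.141 without lung 3), and Scgb1a1, the club cell secretory protein, had log2 difference 0.07 (adjusted p = 0.725).

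Alveolar fluid transport genes rose in 4 of 15 cases and fell in 2. Atp1b1, the beta subunit of the sodium pump that drives fluid out of the air spaces, stood at 5357, 5259 and 4552 against 2253 to 2622, median 2461, 2.05-fold higher (log2 1.03 ± 0.11, adjusted p = 9.93e-06). Subunits of the epithelial sodium channel gave no call, with log2 differences of 0.18 for Scnn1a, -0.01 for Scnn1b and -0.39 for Scnn1g. The water channels split, Aqp1 of endothelium rising (log2 0.48 ± 0.13, adjusted p = 0.016) and Aqp5 of type I cells falling (log2 -0.66 ± 0.20, adjusted p = 0.0256). Both calls were lost without lung 1 (adjusted p = 0.0707 and 0.0753) or lung 3 (0.0579 and 0.173), that of Aqp5 also without control 4 (0.0504), and 2 members stayed higher in either case.

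Transporters of amino acids, amines and glucose rose in 7 of 22 cases and fell in 2. The glutamate transporter Slc1a3 stood at 1620.0, 968 and 1086 against 401 to 538, median 479 (log2 1.29 ± 0.16, adjusted p = 2.95e-05). Slc7a1, which imports arginine, stood at 781, 367 and 1339 against 237 to 298, median 266 (log2 1.39 ± 0.30, adjusted p = 0.00398). The glucose transporter Slc2a3 stood at 325, 303 and 489 against 90.5 to 149, median 115 (log2 1.47 ± 0.32, adjusted p = 0.00383). Slc3a2, the shared heavy chain of amino acid exchangers, rose evenly (3527, 4194 and 3978 against 2360.1 to 2953, median 2589; log2 0.57 ± 0.10, adjusted p = 0.00073). Without lung 3 there were 4 higher and none lower. Hypoxia and glycolysis genes rose in 5 of 29 cases and fell in 2. Bnip3, a mitophagy receptor, rose to 2088, 1939 and 1608 from 699 to 968, median 909 (log2 1.09 ± 0.19, adjusted p = 0.000746). P4ha1, which hydroxylates collagen, fell to 427, 545 and 533 from 714 to 979.6, median 781 (log2 -0.66 ± 0.13, adjusted p = 0.00155). Vegfa gave no call (log2 -0.44, adjusted p = 0.0719), and 2 members were higher without lung 3 and 8 with arrays centred.

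Metabolic genes are described together with the cardiac markers, whose mean was highest in lung 2. Fatty acid genes rose in 6 of 32 cases and fell in 1: Acsl4, which activates arachidonic acid, stood at 2268, 2772 and 3142 against 1214 to 1808, median 1528 (log2 0.81 ± 0.15, adjusted p = 0.00103). Lipoprotein lipase Lpl stood at 3643, 4218 and 2860.3 against 1582 to 2469, median 1709 (log2 0.91 ± 0.18, adjusted p = 0.00196). The fatty acid binder Fabp5 stood at 3631, 4542 and 5623 against 1664 to 2948, median 2267 (log2 1.01 ± 0.20, adjusted p = 0.00233). Acsl4 and Fabp5 were highest in lung 3 and Lpl in lung 2. The number higher was 3 with the cardiac marker mean as a covariate. Acsl4, Fabp5 and Lpl stayed called in that limma fit (adjusted p = 0.00715, 0.00804 and 0.0151). Oxidative phosphorylation genes rose in 7 of 42 cases and fell in none, 3 without lung 2, 14 with arrays centred on their medians and 3 with the cardiac covariate. Uqcrfs1 of complex III rose to 2585, 2894 and 2726 from 1783 to 2026, median 1889 (log2 0.53 ± 0.09, adjusted p = 0.000597). Ndufa5 of complex I rose to 372, 514 and 396 from 240.5 to 321, median 292 (log2 0.55 ± 0.13, adjusted p = 0.00612). Both were higher in every right lung than in any control. Signals did not overlap in 10 of the 42 members, near the 25.3% of all tested genes. Of the 19 cardiac markers Mb alone was called, against 4 higher after centring or quantile normalization, while their median log2 difference was 1.40; Myh6, the heart myosin, stood at 1399.7, 1955 and 614 against 36.9 to 1162, median 398 (adjusted p = 0.189). Cholesterol synthesis and LDL receptor genes gave no limma call among 18, as deposited or with arrays centred, and 2 had an unadjusted p under 0.05.

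Proteasome subunits rose in 9 of 31 cases and fell in none, with differences of modest size. Psmd9 stood at 455, 512 and 456 against 308 to 349, median 332 (log2 0.48 ± 0.09, adjusted p = 0.00142). Psma2, an alpha ring subunit, stood at 2161, 2900.2 and 1973 against 1462 to 1553, median 1473 (log2 0.62 ± 0.15, adjusted p = 0.00656). The number was 14 with arrays centred, 4 without lung 2 and 5 with the cardiac covariate. Unfolded protein and integrated stress response genes rose in 6 of 29 cases and fell in 1: Atf4, the transcription factor of that response, stood at 4594, 3649.7 and 5351 against 2432 to 3068, median 2717 (log2 0.71 ± 0.13, adjusted p = 0.00105). Its target Ddit3 (log2 -0.33, adjusted p = 0.207) and the chaperone Hspa5 (0.13, adjusted p = 0.637) gave no call. Without lung 3 there were 2 higher, without lung 2 there were 2 lower, and with the cardiac covariate 3 were higher. Antioxidant genes rose in 6 of 30 cases and fell in 1. With Sod2 rose Gclc, which limits glutathione synthesis (526, 517 and 766 against 288 to 399, median 377; log2 0.67 ± 0.15, adjusted p = 0.00435). The heme oxygenase Hmox1 rose to 946, 611 and 1559 from 275 to 646, median 396 (log2 1.16 ± 0.35, adjusted p = 0.0265). Its call ended without lung 1 or 3 or control 4 (adjusted p = 0.0627, 0.164 and 0.0521). Without lung 3 there were 2 antioxidant members higher, and with the cardiac covariate 3.

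Of 29 splicing factors and RNA-binding proteins 4 were higher and 4 lower, 13.8% each, against 7.75% and 12.6% of all tested genes. Elavl1, which stabilises AU-rich messages, fell to 885, 1012 and 1069 from 1329 to 1745, median 1522 (log2 -0.60 ± 0.10, adjusted p = 0.000709). Rbm3, a cold-inducible RNA-binding protein, rose to 3516, 4680.0 and 4921 from 2009 to 3048, median 2764 (log2 0.72 ± 0.15, adjusted p = 0.00234). Ubiquitin enzymes counted 3 higher (12%) and 2 lower (8%) of 25. None was higher without lung 2, and 5 were with arrays centred. The firmest was the ligase Cbl, which fell to 803, 584 and 648 from 909 to 995, median 933 (log2 -0.46 ± 0.10, adjusted p = 0.00333). Ribosomal proteins and translation factors had 3 of 28 higher (10.7%, against 7.75% of all tested genes). All were lost without lung 3, and 5 were higher with arrays centred. Heat shock chaperones had 2 higher (8.33%) and 3 lower (12.5%) of 24, near the shares of all tested genes. Hspa4, a relative of Hsp110, fell to 295, 420.2 and 271 from 780.1 to 919, median 869 (log2 -1.35 ± 0.15, adjusted p = 1.2e-05). The mitochondrial chaperone Hspa9 rose to 1198, 1427 and 1651 from 804 to 971, median 888 (log2 0.65 ± 0.15, adjusted p = 0.00587). Without lung 2 the counts were 1 and 1.

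The right lungs at 3 h were next set against right lungs of the earlier time, 30 min after release of the left hilum. Limma called 21 of 10533 probe sets (0.199%), and 15 of 7728 genes (0.194%), of which 1 was higher at 3 h and 14 lower. Cd36, the fatty acid receptor of capillaries and macrophages, was the gene that was higher, at 3934, 2899 and 2678 against 1469, 1774 and 879.9 (log2 1.23 ± 0.24, adjusted p = 0.0401). Of 8 tested erythroid markers 2 were called lower at 3 h and none higher, while 4 had a log2 difference above 0. Bpgm, which makes bisphosphoglycerate, a regulator of oxygen release, stood at 479, 546 and 866 against 1228, 1664 and 3381 (log2 -1.60 ± 0.30, adjusted p = 0.0365). Slc4a1, the anion exchanger band 3, stood at 224, 151 and 246 against 511, 453 and 633 (log2 -1.27 ± 0.23, adjusted p = 0.0263). Ube2o, a ubiquitin enzyme of reticulocytes, had log2 difference -1.50, Rbm38 -1.47, the lipoxygenase Alox15 -1.68 and the leukocyte antigen Cd52 -1.75. The interferon gene Mx2 stood at 198, 299 and 199.9 against 824, 374 and 583 (log2 -1.22 ± 0.24, adjusted p = 0.0428). Against control, the log2 differences of these 8 genes at 3 h ran from -0.27 for Mx2 to 0.80 for Cd36, the only one of them called (adjusted p = 0.0109; 0.0671 without lung 1). The mean log2 signal of the 8 erythroid markers was 9.70 to 10.2 at 30 min, 9.13 to 9.62 at 3 h and 8.84 to 9.27 in controls. All of these calls depended on lung 3 of the 30 min group, whose actin ratio of 2.93 was the highest of the right lungs: without it limma called 0 probe sets, with 895 at an unadjusted p under 0.05, and the 8 genes had adjusted p from 0.0725 to 0.172. Without lung 2 of the 3 h group 6 probe sets were called and none of the 8 genes (0.0512 to 0.105), and without its lung 1 5 probe sets and, of the 8, Cd52 alone (the others 0.0748 to 0.12). Without its lung 3 there were 36, and without lung 1 of the 30 min group 60. Rbm38 (0.0502) and Mx2 (0.0831) were also lost without lung 3 of the 3 h group, and Mx2 (0.066) without lung 1 of the 30 min group.

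For 6 of the genes that differed most from control, limma made no call between the 2 times. Mt2A stood at 10029.7, 5129 and 7530.4 at 30 min (log2 0.36 between the times, adjusted p = 0.707), Fkbp5 at 2254, 1556 and 2148 (-0.03, adjusted p = 0.979), Prkaa2 at 9.67, 7.78 and 11.4 (0.02, adjusted p = 0.988) and Bmpr2 at 288, 343 and 430.5 (-0.15, adjusted p = 0.818). For Il1r2 the 30 min lungs gave 499, 723 and 378, with a difference of 1.29 ± 0.53 (SE; adjusted p = 0.311), and for Timp1 2486, 3035 and 2494, with 0.77 ± 0.35 (adjusted p = 0.354). With 3 lungs a group and standard errors of this size, a p above the threshold does not show that the levels were the same. Both times share the controls, so their counts against control are not compared.

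Set against the clamped left lungs of the same time, the right lungs differed in 240 of 10533 probe sets (2.28%), 67 higher and 173 lower, and in 183 of 7728 genes (2.37%), 48 higher and 135 lower. All clamped lungs were left and all unclamped ones right, so clamp and side cannot be told apart. After centring, 15% of the called probe sets were higher on the right, against 27.9% as deposited. The count of probe sets was 35 without left lung 1, 61 without right lung 1, 107 without right lung 2 and 461 without right lung 3. The heat shock chaperones carried the clearest difference, with 12 of 24 tested members lower in the right lung, against 1.75% of all genes, and none higher, 10 to 12 when any array was left out and 6 in a fit of these 6 arrays alone. Hspa1a, the inducible Hsp70, had signals of 596, 583 and 1340.4 in the right lungs, 12648, 11284 and 11863 in the left lungs and 856 to 1452, median 1108 in controls, 14.9-fold lower than on the left (log2 -3.90 ± 0.31, adjusted p = 1.86e-06). Dnaja1, its partner of the Hsp40 family, stood at 1194, 1169 and 1184 against 8216, 5813 and 6821 (log2 -2.52 ± 0.18, adjusted p = 5.24e-07). The small heat shock protein Hspb1 stood at 2047, 1565 and 3046 against 12667, 10933 and 11223 (log2 -2.42 ± 0.23, adjusted p = 8.67e-06). Hsph1, an exchange factor for Hsp70, stood at 1144, 1021 and 1834 against 8041, 6487 and 6065 (log2 -2.38 ± 0.26, adjusted p = 6.62e-05). Dnajb1 stood at 631, 683 and 911 against 4255, 2928 and 4666 (log2 -2.36 ± 0.19, adjusted p = 2.14e-06). In each of these 5 genes the right lungs lay at or near control and the left lungs several-fold above; of the 5, Dnaja1 alone was called against control (log2 -0.46, adjusted p = 0.0414), a call that was lost without any of the 3 lungs (0.0881 to 0.102) or without control 2, 3, 4, 5 or 6 (0.051 to 0.0716). The change from 30 min to 3 h differed between right and left lungs in 24 of 10533 probe sets (0.228%), 22 of them with the lower change on the right, and all 5 of these chaperones were among them. Without arrays of actin ratio above 2 the count of probe sets was 5.

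Heat shock factor 1, the textbook regulator of these genes, binds inverted GAA units. A pair of them, GAANNTTC, lay in 8 of the 11 promoter windows found for the 12 chaperones lower in the right lung. The shares were 5.46% of the windows of 6471 tested genes and 8.34% of all 27457 windows. All 12 belong to a list of heat shock chaperones, and how far their share reflects the choice of that list was not tested. The pair reads the same on both strands. The 250 bases before the start site are shown for 3 of the genes, to display its place in capitals: Hspb1 at chr12:26432302-26432551, minus strand, Hsph1 at chr12:10427118-10427367, plus strand, and Dnaja1 at chr5:60638154-60638403, plus strand, all in GRCr8 from RefSeq. The pair occurs 2 times in the first and 1 time in each of the others.
Hspb1: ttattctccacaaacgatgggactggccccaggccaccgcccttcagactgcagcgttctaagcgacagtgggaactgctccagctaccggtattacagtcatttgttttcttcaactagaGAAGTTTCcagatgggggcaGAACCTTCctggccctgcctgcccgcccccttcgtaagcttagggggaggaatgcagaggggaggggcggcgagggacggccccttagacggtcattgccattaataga
Hsph1: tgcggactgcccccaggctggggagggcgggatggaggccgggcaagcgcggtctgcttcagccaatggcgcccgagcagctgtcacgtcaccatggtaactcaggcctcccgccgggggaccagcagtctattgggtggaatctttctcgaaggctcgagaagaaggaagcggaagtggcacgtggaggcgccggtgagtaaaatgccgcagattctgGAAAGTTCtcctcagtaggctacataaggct
Dnaja1: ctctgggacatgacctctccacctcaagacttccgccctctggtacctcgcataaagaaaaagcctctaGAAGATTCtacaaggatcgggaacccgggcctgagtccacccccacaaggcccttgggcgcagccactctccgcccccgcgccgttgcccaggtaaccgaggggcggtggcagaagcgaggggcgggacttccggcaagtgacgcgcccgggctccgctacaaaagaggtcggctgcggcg
No pair was found in the window of Hspa1a, which says only that these letters are not in that stretch, and the pair also lay in both windows found for the 2 chaperones that rose against control.

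**Figure D5:**
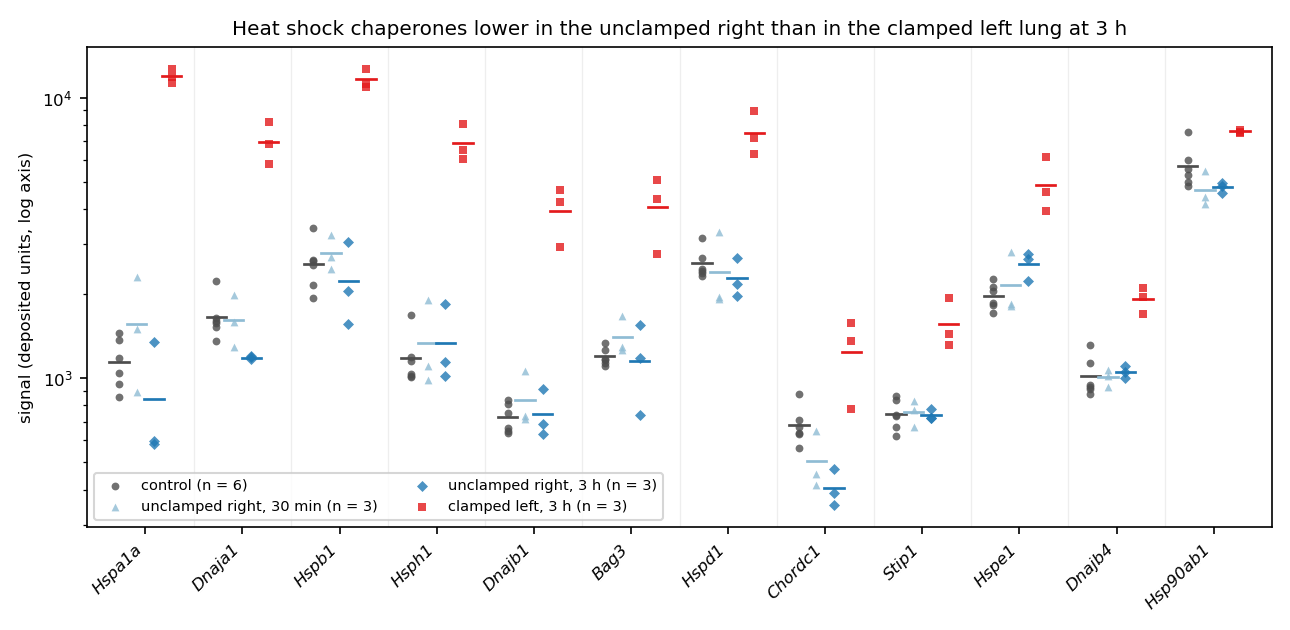
Signals in deposited units (log axis) of the 12 heat shock chaperones called lower in the unclamped right than in the clamped left lung at 3 h, for controls (grey circles), right lungs at 30 min (light triangles), right lungs at 3 h (blue diamonds) and left lungs at 3 h (red squares); short lines are group means. The left lungs stand apart for Hspa1a, at 11284 to 12648, while the right lungs at 3 h, at 583 to 1340.4, lie around the controls.

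Of 29 genes of the unfolded protein and integrated stress response 4 were lower on the right, and of 29 hypoxia and glycolysis genes 4; 7 members of either list had a log2 difference above 0. Without left lung 1 or right lung 1 there was 1 lower in each list, without right lung 2 there were 2 in each, and without left lung 2 there was 1 in the hypoxia list; with the cardiac covariate the counts were 0 and 1. P4ha1 of the hypoxia list stood at 427, 545 and 533 in the right lungs and 1650.1, 1297 and 1328 in the left (log2 -1.46 ± 0.14, adjusted p = 1.61e-05). Ddit3 stood at 229, 213 and 187 and 605, 531 and 597 (log2 -1.36 ± 0.21, adjusted p = 0.00268). Early response genes were also lower on the right, 5 of 21 immediate early factors and 8 of 16 NF-kB genes being called. After quantile normalization 4 of the NF-kB genes were, and with the cardiac covariate none of either list. Without left lung 1, right lung 1 or right lung 2 none of either list was called, without left lung 3 there were 2 and 5, and without right lung 3 there were 8 and 7. Fosb had signals of 33.0, 32.2 and 158 against 1677, 1249.8 and 3547 (log2 -4.55 ± 1.07, adjusted p = 0.0338). Atf3 had 349.5, 276 and 548 against 3988, 2308 and 4017 (log2 -3.07 ± 0.70, adjusted p = 0.0316). Both calls ended without left lung 1 (adjusted p = 0.124 and 0.151), left lung 3 (0.0707 and 0.0578), right lung 1 (0.131 and 0.102) or right lung 2 (0.108 and 0.104). In the other direction Serpind1 was higher on the right, at 457, 298 and 432 against 93.0, 123 and 221 (log2 1.35 ± 0.21, adjusted p = 0.00266). Of the 8 largest excesses of the right lung, 7 were muscle genes, led by Mb (387, 1629 and 177 against 16.0, 11.6 and 19.4; log2 3.67 ± 0.83, adjusted p = 0.0312), Tnni3 (log2 3.14), Fabp3 (3.13) and Ckmt2 (2.49). The left lungs held less cardiac signal than the median control, 6.62 to 6.92 against 7.90 in mean log2 signal. These 4 calls ended without left lung 1 or 2 or right lung 1 or 2 (adjusted p from 0.0557 to 0.134), that of Tnni3 also without left lung 3 (0.0563), and without right lung 3 the log2 differences of Mb and Tnni3 were 4.35 and 3.82.

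Several of the largest differences from control gave no call between the sides. Log2 differences between right and left were -0.13 ± 0.37 (SE) for Mt2A (adjusted p = 0.882), 0.70 ± 0.25 for Fkbp5 (0.153), -0.16 ± 0.46 for S100a8 (0.886), 0.05 ± 0.23 for Bmpr2 (0.924) and 0.33 ± 0.16 for Axin2 (0.291). Il6 gave no call between the sides, at 200.0, 87.6 and 675 against 3701, 626 and 699 (log2 -2.21 ± 0.61, adjusted p = 0.0662). The chemokines Ccl2 (log2 -2.02 ± 0.51, adjusted p = 0.0453) and Cxcl1 (log2 -1.40 ± 0.35, adjusted p = 0.043) were called lower on the right. Without left lung 1 the adjusted p values were 0.286 and 0.26, and both calls also ended without right lung 1 (0.117 and 0.182) or right lung 2 (0.151 and 0.11), Cxcl1 without left lung 3 as well (0.0534).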

How the data were processed

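Lung RNA was measured on 18 arrays of 1 colour. The deposited intensity values are linear signals made by the authors with MAS5, per the submitters' processing notes, whose version is not given, and scaled to a common mean: the mean after trimming 2% at either end was 500.1 on every array. The design text names GeneSpring 7.2 for the authors' own analysis. Right lungs and left lungs came from the same operation, and the labels do not say which samples share a rat, so p-values measure the spread between samples.

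Signals were taken as log2(signal + 25). Of 15923 probe sets, 57 controls were left out, and 10533 with a signal above 174, the 40th percentile of all signals, on at least 3 arrays were tested with limma 3.58.1 in R 4.3.3, as 5 group means over all 18 arrays (13 residual degrees of freedom), with Benjamini-Hochberg adjustment per comparison. Fold changes are on that scale and understate changes of dim genes. Tables were made with Python 3.11.15 and pandas 2.3.3, and the fit was checked on simulated data. Names came from a platform annotation of 2016: 12783 probe sets had 1 symbol, 312 several and 2771 none, and 0 symbols needed updating. Where several probe sets of a gene were tested, the brightest on average stood for it, which gave 7728 genes.

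Named genes are the 12 largest rises and falls against control, up to 8 each way in the other comparisons, and members of the lists, called ones in order of adjusted p. The lungs and lists were chosen with earlier results of these data known. Alternatives were other pseudocounts (1 and 100), no filter, quantile normalization, centring, a variance trend, the replicate number as a block, the cardiac marker mean as a covariate, leaving out arrays of actin ratio above 2, the 2 groups alone, each array left out, and other probe sets. Number of arrays limits the precision. Promoter windows are RefSeq sequences of GRCr8; the build behind the array annotation is not given in the sources used here.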

Additional observations from a re-analysis of the deposited data

Results flagged for a closer look

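Among 214 sets of control values tested for a single stray array, 17 had one, and chance alone gives about 1 in 20. Control 5 accounted for 8: Bak1 (signal 125), Gclc (288), Rbm38 (293) and Ptgs2 (8.64) lay below the other 5 controls, and Dnaja1 (2222), Hsph1 (1677), Hspa5 (4066) and Jak2 (350.4) above them. Control 2 was high for the leukocyte genes S100a8 (696), S100a9 (2342) and Lilrb4 (561). Control 3 was high for Selp (105) and Tgfb2 (595) and low for Vegfa (2836). Fkbp5 was high in control 6 (507), Nfix was high in control 1 (783) and Nr3c1 was low in control 4 (1124). Even the highest control value of S100a8, S100a9 and Fkbp5 lay below every right lung at 3 h.

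The change from 30 min to 3 h differed between unclamped right and clamped left lungs for 7 named genes, in a limma test of the difference of the 2 changes. The left lungs at 30 min, which enter this test, had actin ratios of 4.81, 1.53 and 2.30. Without arrays of actin ratio above 2 it called 5 probe sets instead of 24. Hspa1a changed by -0.89 on the right and by 2.55 on the left, a difference of -3.43 ± 0.44 (log2, SE; adjusted p = 0.00142). The difference was -2.48 for Dnaja1 (adjusted p = 0.000141), -2.40 for Hspb1 (0.00149), -2.30 for Hsph1 (0.00891) and -2.04 for Dnajb1 (0.00149). Of the other stress genes it was -1.46 for P4ha1 (0.0021) and -1.59 for Ddit3 (0.0322). In each of them but Hsph1 the right lungs had a lower mean at 3 h than at 30 min, and the left lungs a higher one in all 7.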

How the results depend on the processing

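Against control, the 2255 called probe sets stayed within 1.5 times under other pseudocounts, no filter, quantile normalization, centring, a variance trend, the removal of arrays of high actin ratio and a fit of the 2 groups alone. With the cardiac marker mean as a covariate there were 1268, and with single arrays left out 1417 to 1981, the lowest without lung 3. Of 152 named genes called against control, 116 were called in every such fit, and 24, 18 and 10 were not called without lung 3, 1 and 2; the cardiac covariate ended 21 calls. Another probe set reversed the sign for Stat3 (-0.13), Il6st (-0.10) and Dusp6 (0.32), while a further one kept it for Il6st (1.01) and Dusp6 (-0.43); the cause was not tested.

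The 21 probe sets called between the times became 10 without the filter, 13 after centring, and 0 with the cardiac covariate, without arrays of high actin ratio or with the 2 groups alone (977, 896 and 773 at an unadjusted p under 0.05), and 0 to 60 with single arrays left out. The 240 called between the sides became 138 without the filter, 29 with the cardiac covariate, 27 with the 2 groups alone, and 35 to 461 with single arrays left out. The 24 for the change over time between the sides became 13 with the covariate and 5 without arrays of high actin ratio. The causes were not tested. Some of these fits also held fewer arrays or more probe sets, and the part of those numbers was not tested either.

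The replicate number as a block gave 952 probe sets against control, 5 between the times, 65 between the sides and 11 for the change over time. Same-numbered samples did not deviate together (correlations of deviations of the right lungs at 3 h 0.03, -0.01 and 0.06 with controls, -0.12, 0.08 and -0.10 with right lungs at 30 min, -0.17, 0.07 and -0.15 with left lungs), so the numbers are not taken to pair samples. With left lungs of other numbers the correlations ran from -0.24 to 0.34, the highest between right lung 3 and left lung 1. Whether lungs of different numbers share a rat was not tested. Signals near 25 have only a rough level, which limits Prkaa2, Gzmm, Serpinb2 and Sele.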
